A study of Homo sapiens with 14 samples.

Results

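LIN28A, LIN28B, IGF2BP1, IGF2BP2, IGF2BP3, HMGA1 and HMGA2 are genes of fetal tissue and stem cells whose transcripts were followed here through pancreatic differentiation. They were taken from the deposited count table by gene symbol, and all 7 were found among its 59050 gene symbols. The cells were HUES8, an established human embryonic stem cell line of wild-type (WT) genotype, sampled at definitive endoderm (DE) and at an early (PP1) and a late (PP2) stage of pancreatic progenitor. Each stage was measured by sequencing of rRNA-depleted total RNA (RNA) and of ribosome-bound RNA (Ribo), with 2 DE, 2 PP1 and 3 PP2 libraries per assay, 14 in all. All groups share this 1 line and genotype, the labels name no agents for the stages, and undifferentiated cells were not analysed here. The labels do not say whether replicates were separate differentiations, so a p-value here reflects only how far libraries scatter, and that scatter may be technical.

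The 3 families belong to one well-known circuit of fetal growth. LIN28A and LIN28B are RNA-binding proteins that block maturation of the let-7 microRNAs by binding the loop of the let-7 precursor, where a GGAG motif is contacted, and by recruiting the uridylating enzymes TUT4 and TUT7. Mature let-7 in turn represses LIN28A, LIN28B, the IGF2BP genes and HMGA2, so that LIN28 and let-7 hold each other in check. IGF2BP1, IGF2BP2 and IGF2BP3 bind target mRNAs such as IGF2, MYC and CD44 and stabilise or localise them, and are readers of N6-methyladenosine (m6A). HMGA1 and HMGA2 are small chromatin proteins that bind AT-rich DNA, and HMGA2 is typically expressed in the embryo and shut off in most adult tissues.

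The let-7 family is shown because its seed is the sequence through which the LIN28 block reaches the other genes. RefSeq (GRCh38.p14) listed 12 let-7 family hairpins with 9 distinct mature 5′ arm names, and all of them shared 1 seed. Capitals mark the seed, bases 2 to 8 from the 5′ end.
let-7a: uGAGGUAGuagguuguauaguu
let-7b: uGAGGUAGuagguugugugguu
let-7c: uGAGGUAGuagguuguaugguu
let-7d: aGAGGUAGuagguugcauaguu
let-7e: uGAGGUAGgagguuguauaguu
let-7f: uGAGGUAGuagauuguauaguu
let-7g: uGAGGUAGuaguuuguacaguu
let-7i: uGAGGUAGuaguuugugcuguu
miR-98: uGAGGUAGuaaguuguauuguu

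The hairpins show the letters LIN28 is known to contact. The motif searched was GGAG, on the RNA strand only, between the mature arms; where 1 arm was listed, the other was taken as the 22 bases opposite it. It was present in 9 of the 12 let-7 family hairpins and absent from the other 3 (let-7a-3, let-7b and miR-98), and 127 of the 1502 human hairpins with a placed arm held it (8.46%). A match describes letters and not a bound site. Examples with the motif are let-7g (chr3:52268278-52268361, minus strand) and let-7a-1 (chr9:94175957-94176036, plus strand), and examples without it are let-7a-3 (chr22:46112749-46112822, plus strand) and let-7b (chr22:46113686-46113768, plus strand). Capitals mark GGAG.
let-7g hairpin: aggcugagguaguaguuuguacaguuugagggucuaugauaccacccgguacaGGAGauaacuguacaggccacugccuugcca
let-7a-1 hairpin: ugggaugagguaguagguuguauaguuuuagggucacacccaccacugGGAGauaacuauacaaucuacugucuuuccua
let-7a-3 hairpin: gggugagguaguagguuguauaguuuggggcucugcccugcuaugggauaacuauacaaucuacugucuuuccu
let-7b hairpin: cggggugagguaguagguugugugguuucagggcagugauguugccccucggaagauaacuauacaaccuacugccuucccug

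RNA libraries held 15107847 to 21009065 counts and Ribo libraries 4710335 to 24186949. RNA PP2 replicate 3 stood apart from its group: IGF2BP1 and HMGA1 were there at 0.596 and 0.587 times the mean of the other 2 PP2 libraries. Ribo PP2 replicates 1 and 3 differed in make-up, with protein-coding genes at 91.5% and 77.5% of counts against 27.1% to 42.6% in the other Ribo libraries. The mitochondrial rRNA gene MT-RNR2 held 1.65% and 11% of their counts. In the other Ribo libraries, among them all of DE and PP1, it held 44.6% to 60.8%. Markers of the labelled stages did not all move alike. Levels below are in CPM, counts scaled to a common library size. Summed over 10 endoderm markers the RNA level was 6624 to 7032 CPM in DE, 374 to 428 in PP1 and 160 to 300 in PP2. Over 11 pancreatic progenitor markers it was 750 to 799, 1269 to 1296 and 465 to 1519 CPM, with the lowest PP2 library below DE. Within that list PDX1 and NKX6-1, transcription factors of the pancreas, had no RNA count in DE and 8862 and 7051 counts in PP2. Markers of other cells moved with stage as well. Over 7 hepatic markers the RNA sum was 16.1 to 18.5 CPM in DE, 12980 to 14020 in PP1 and 4743 to 7168 in PP2, with AFP, TTR, FGB and SERPINA1 at 0 in DE, and over 8 mesenchyme markers it was 89.6 to 112, 356 to 410 and 169 to 362 CPM. Pluripotency markers, 10 in number, summed to 1031 to 1107, 208 to 216 and 104 to 128 CPM, with UTF1 at 0 in PP1 and PP2. The part of these changing cell types in the levels below was not tested, and in bulk libraries fewer cells of a type and less RNA per cell cannot be told apart.

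Stage comparisons used edgeR's quasi-likelihood test with Benjamini-Hochberg adjustment over all tested genes, with 0.05 as the limit for a pass. All 7 genes had enough counts to be tested in each assay. In RNA, 1 of the 7 passed between DE and PP1 (HMGA2, lower), against 24.3% of all tested genes (12.3% higher and 12% lower). Between PP1 and PP2 3 of 7 passed, HMGA2 higher and LIN28A and IGF2BP3 lower, against 18.4% (7.8% higher and 10.6% lower). Between DE and PP2 4 of 7 passed, all lower (LIN28A, IGF2BP2, IGF2BP3 and HMGA2), against 33.5% (16.4% higher and 17.1% lower). The median log2 change of the 7 genes was −0.27, −0.40 and −0.71 in the 3 comparisons, and that of all tested genes 0.01, 0.01 and 0.05. In Ribo 1 of 7 passed between DE and PP1 (HMGA2, lower; background 7.53%, with 4.52% higher and 3.01% lower), and 0 of 7 between PP1 and PP2 (background 5.01%, with 2.16% higher and 2.85% lower) and between DE and PP2 (background 27.6%, with 13.1% higher and 14.5% lower). At an unadjusted p under 0.05, 1 and 3 of the 7 had passed in these last 2 comparisons, as had 3444 and 6259 of all 15067 genes, and DESeq2 called 1 and 2 of the 7. Single libraries moved these counts. Without RNA PP2 replicate 3 each RNA comparison had 5; without any 1 of the other 6 RNA libraries PP1 to PP2 had 1; and DE to PP2 had 1 without DE replicate 1 and 3 without DE replicate 2 or PP2 replicate 1. The Ribo count was 0 from DE to PP1 without DE replicate 2 or either PP1 library, and without PP2 replicate 2 it was 1 from PP1 to PP2 and 3 from DE to PP2. Calls over all genes moved as well. Without RNA PP2 replicate 3 they rose from 5979 to 11997 for DE to PP1, and from 4533 to 9984 for PP1 to PP2. A pass of one of the 7 in that run alone thus came with many more passes among all genes. The run without Ribo PP2 replicate 2 leaves in PP2 only the libraries of other make-up. Stage and make-up cannot be told apart in it. With 7 genes, each count among the 7 is a description of few items beside its background.

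**Figure D1:**
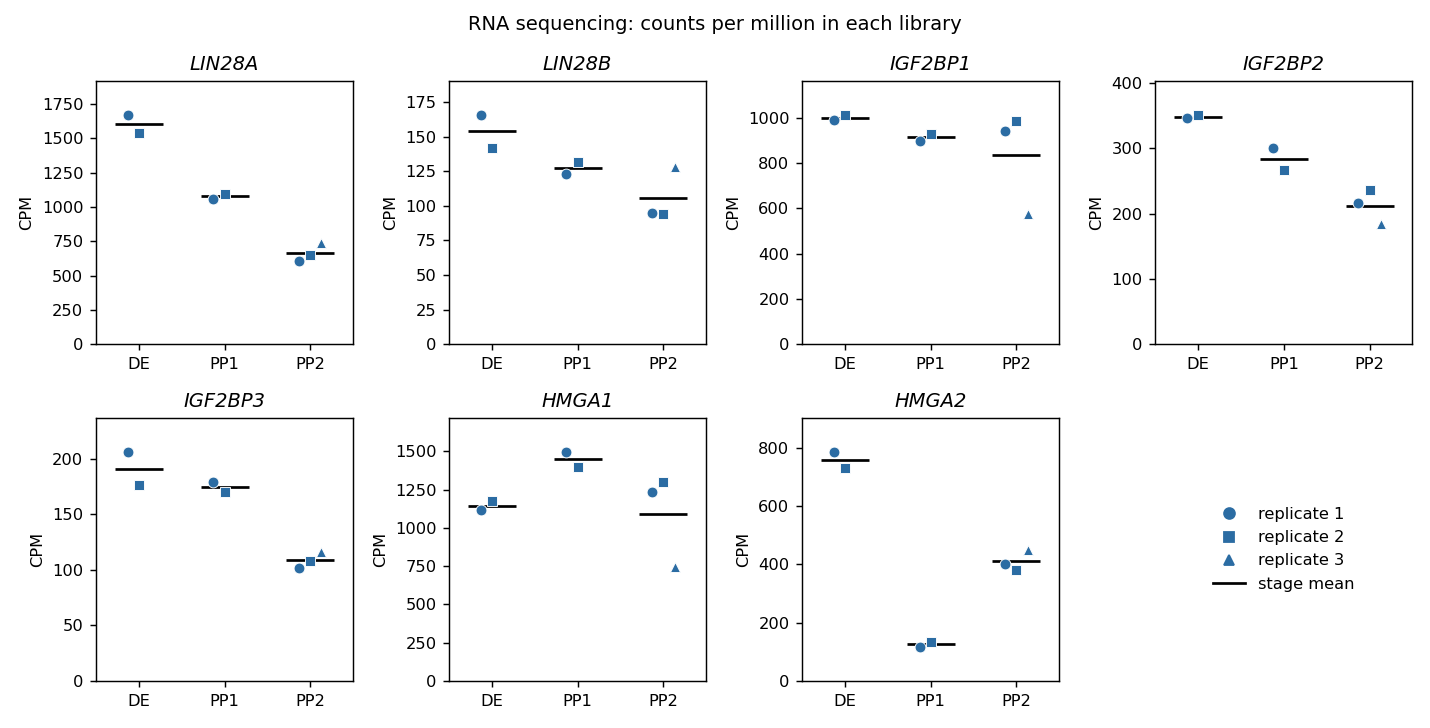
RNA level of each gene in every library, in CPM on a linear axis from 0, by stage; circles, squares and triangles are replicates 1, 2 and 3 and bars the stage mean. HMGA2 dropped to 118 and 133 CPM in PP1 from 784 and 730.5 in DE, LIN28A lay lower at each later stage, and RNA PP2 replicate 3 lay well below its group for IGF2BP1 and HMGA1.

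LIN28A, the LIN28 paralog of pluripotent and early embryonic cells (chr1:26410817-26429728 in RefSeq GRCh38.p14), had a lower level at each later stage. Its RNA level was 1666 and 1539.9 CPM in DE, against 1056 and 1095 in the PP1 pair, and 607, 647 and 738 in PP2. No library of one stage overlapped with another stage. The fall from PP1 to PP2 passed (log2 −0.70 ± 0.18 SE, adjusted p 0.0345), as did that from DE to PP2 (−1.27 ± 0.18, adjusted p 0.00117), a 2.41-fold lower level. The change from DE to PP1 was −0.58 ± 0.20 and did not pass (adjusted p 0.0772). The DE to PP2 call held in all 16 RNA alternatives. That from PP1 to PP2 was lost in 7 of 16, with an adjusted p up to 0.198: when only the stages compared were fitted, and without any 1 of DE replicate 1 or 2, PP1 replicate 1 or 2, or PP2 replicate 1 or 2. Without RNA PP2 replicate 3 the DE to PP1 change passed at −0.57 (adjusted p 1.15e-05).

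LIN28B, the second LIN28 gene (chr6:104937026-105083332), was at a lower level per length than LIN28A at every stage. RNA was 165 and 142 CPM in DE, 123 and 132 in PP1, then 95.2, 94.0 and 128 in PP2. The PP2 libraries all lay below DE, but PP2 replicate 3 fell inside the PP1 range. None of its changes passed (−0.27 ± 0.22 from DE to PP1, −0.27 ± 0.20 from PP1 to PP2, and −0.54 ± 0.20 from DE to PP2 with adjusted p 0.0686). Without RNA PP2 replicate 3 all of them passed, at −0.27 (adjusted p 0.0206), −0.43 (0.00103) and −0.70 (2.95e-06).

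In Ribo, LIN28A stood at 121 and 184 CPM in DE, 82.6 and 92.6 in PP1, then 67.9, 80.6 and 96.4 in PP2. DE lay above both later stages, which overlapped with each other. No change passed: −0.80 ± 0.39 (adjusted p 0.253), −0.10 ± 0.35 (0.901) and −0.90 ± 0.34 (0.072) for DE to PP1, PP1 to PP2 and DE to PP2. LIN28B Ribo was 22.3 and 18.5 CPM in DE, 13.5 and 16.3 in PP1, then 12.4, 9.97 and 8.67 in PP2, with the stages in that order and no overlap between neighbours. Its DE to PP2 change of −0.98 ± 0.35 had an adjusted p of 0.06. Without Ribo PP2 replicate 2 the LIN28A change from DE to PP2 passed (−0.87, adjusted p 0.0412). That run leaves only PP2 libraries whose make-up differs from DE, so stage and make-up cannot be told apart in it.

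IGF2BP1, also known as IMP1 (chr17:48996558-49056145), passed no test in RNA, and 1 library stood apart. It stood at 989.8 and 1011 CPM in DE, 899 and 931 in PP1, then 943, 985 and 574.5 in PP2. PP2 replicate 3 was the low one, and the other 2 PP2 libraries lay above PP1 and below DE. No RNA change passed (−0.13 ± 0.28, −0.13 ± 0.25 and −0.26 ± 0.25), and the sign of the PP1 to PP2 value differed in 3 of 16 alternatives, among them 0.08 for IGF2BP1 without RNA PP2 replicate 3 (adjusted p 0.46). Ribo was 211 and 206 CPM in DE, 237 and 283 in PP1, then 396, 291 and 364 in PP2, an upward order with no overlap. The DE to PP2 Ribo change was 0.75 ± 0.39 and did not pass (adjusted p 0.17). Without Ribo PP2 replicate 2 it passed at 0.90 (adjusted p 0.0283), a run in which stage and library make-up cannot be told apart.

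IGF2BP2 (IMP2; chr3:185643130-185825042), the family member that is retained in many adult tissues, was lower in late progenitors. RNA was 346 and 351 CPM in DE, 301 and 266 in PP1, then 217, 236 and 183 in PP2. The 3 stages did not overlap. The fall from DE to PP2 passed (−0.71 ± 0.18, adjusted p 0.0175; 1.64-fold), and the steps of −0.30 ± 0.20 and −0.42 ± 0.18 did not. This call was lost in 3 of 16 alternatives, without RNA DE replicate 1 (adjusted p 0.112), DE replicate 2 (0.122) or PP2 replicate 1 (0.0513). Without RNA PP2 replicate 3 the 2 steps passed, at −0.29 (adjusted p 0.00848) and −0.32 (0.00644). In Ribo the stages overlapped, at 74.5 and 70.6, 76.4 and 57.8, and 45.2, 92.8 and 57.3 CPM in DE, PP1 and PP2, and no change passed (−0.16 ± 0.37 from DE to PP2).

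IGF2BP3 (IMP3; chr7:23310209-23470491), a fetal gene often switched on again in tumours, was lower in PP2 than at either earlier stage. It stood at 206 and 176 CPM in DE, 179 and 169.8 in PP1, then 102, 108 and 116 in PP2. DE and PP1 overlapped, while every PP2 library lay below both. The falls from PP1 to PP2 (−0.68 ± 0.17, adjusted p 0.026) and from DE to PP2 (−0.82 ± 0.17, adjusted p 0.00659; 1.76-fold) passed. The DE to PP2 call was lost only without RNA DE replicate 1 (adjusted p 0.0914). The PP1 to PP2 call was lost in the same 7 settings as that of LIN28A, with an adjusted p up to 0.195. Ribo did not show the same order: 33.9 and 37.1 CPM in DE, 47.6 and 54.0 in PP1, then 36.7, 32.9 and 36.6 in PP2, highest in PP1, with DE and PP2 overlapping and no change passing (0.52 ± 0.32 and −0.52 ± 0.29 for the 2 steps, adjusted p 0.385 and 0.318).

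**Figure D2:**
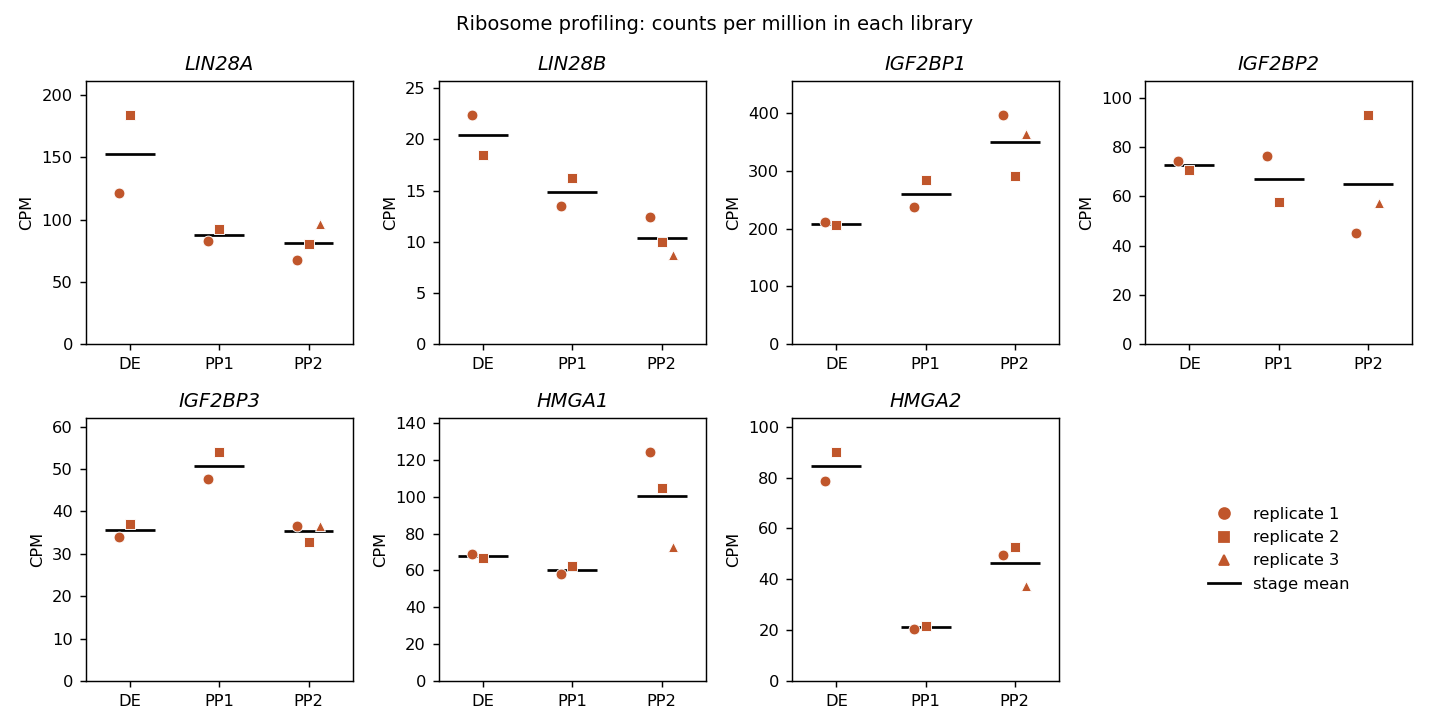
Ribo level of each gene in every library, in CPM on a linear axis from 0, by stage; circles, squares and triangles are replicates 1, 2 and 3 and bars the stage mean. HMGA2 was lowest in PP1 (20.4 and 21.8 CPM), IGF2BP1 lay higher at each later stage, and LIN28B lower.

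HMGA1 (chr6:34236873-34246231), the HMGA gene of proliferating cells, was the highest of the 7 per length in RNA at every stage. RNA was 1118 and 1172 CPM in DE, 1494.5 and 1397.5 in PP1, then 1235, 1299 and 744 in PP2. The PP1 libraries were above all others, while PP2 replicates 1 and 2 lay above DE, and PP2 replicate 3 lay below it. No change passed (0.34 ± 0.29, −0.40 ± 0.26 and −0.07 ± 0.26), and the sign of the DE to PP2 value differed in 4 of 16 alternatives. Without RNA PP2 replicate 3 the DE to PP1 value passed at 0.34 (adjusted p 0.00233). In Ribo, HMGA1 was 68.8 and 67.0 CPM in DE, 58.1 and 62.1 in PP1, then 124, 105 and 72.6 in PP2. All PP2 libraries lay above the other stages, and the PP1 to PP2 change of 0.74 ± 0.35 did not pass (adjusted p 0.232).

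HMGA2 (chr12:65824460-65966291) had the largest fitted RNA steps of the 7, and it fell and then rose. Its RNA level was 784 and 730.5 CPM in DE, 118 and 133 in PP1, then 401, 380.4 and 449.7 in PP2. The stages were far apart and did not overlap, with PP2 between the others. It fell by 2.60 ± 0.21 on the log2 scale from DE to PP1 (adjusted p 8.54e-05), a 6.06-fold drop, then rose by 1.71 ± 0.19 to PP2 (adjusted p 0.00105), 3.28-fold, and ended 0.88 ± 0.18 below DE (log2 −0.88, adjusted p 0.00576). The first 2 calls held in all 16 RNA alternatives, and the DE to PP2 call was lost only without RNA DE replicate 1 (adjusted p 0.0662).

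The ribosome-bound HMGA2 RNA had the same order of stages. Ribo was 78.7 and 90.0 CPM in DE, 20.4 and 21.8 in PP1, then 49.3, 52.8 and 37.4 in PP2, again without overlap. The fall to PP1 passed (−2.0 ± 0.36, adjusted p 0.00622), and the later changes of 1.14 ± 0.33 (adjusted p 0.0703) and −0.86 ± 0.30 (adjusted p 0.0558) did not. The PP1 call was lost in 3 of 17 alternatives, without Ribo DE replicate 2 (adjusted p 0.0604), PP1 replicate 1 (0.127) or PP1 replicate 2 (0.113), while the log2 change stayed between −2.10 and −1.87 in all 17. Without Ribo PP2 replicate 2 the rise from PP1 to PP2 passed (1.07, adjusted p 0.0254), and so did the lower level of PP2 against DE (−0.92, adjusted p 0.0224). In that run stage and library make-up cannot be told apart. Without Ribo PP2 replicates 1 and 3 instead, which leaves 1 PP2 library, the rise from PP1 was 1.33. Proliferation markers, 6 in number, also had their lowest RNA sum in PP1, at 766 to 883 CPM against 1072 to 1249 in DE and 1241 to 1344 in PP2. Their Ribo sum had no such low, at 441 to 560 CPM in DE, 474 to 543 in PP1 and 755 to 1144 in PP2. The part of proliferation in the HMGA2 pattern was not tested.

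**Figure D3:**
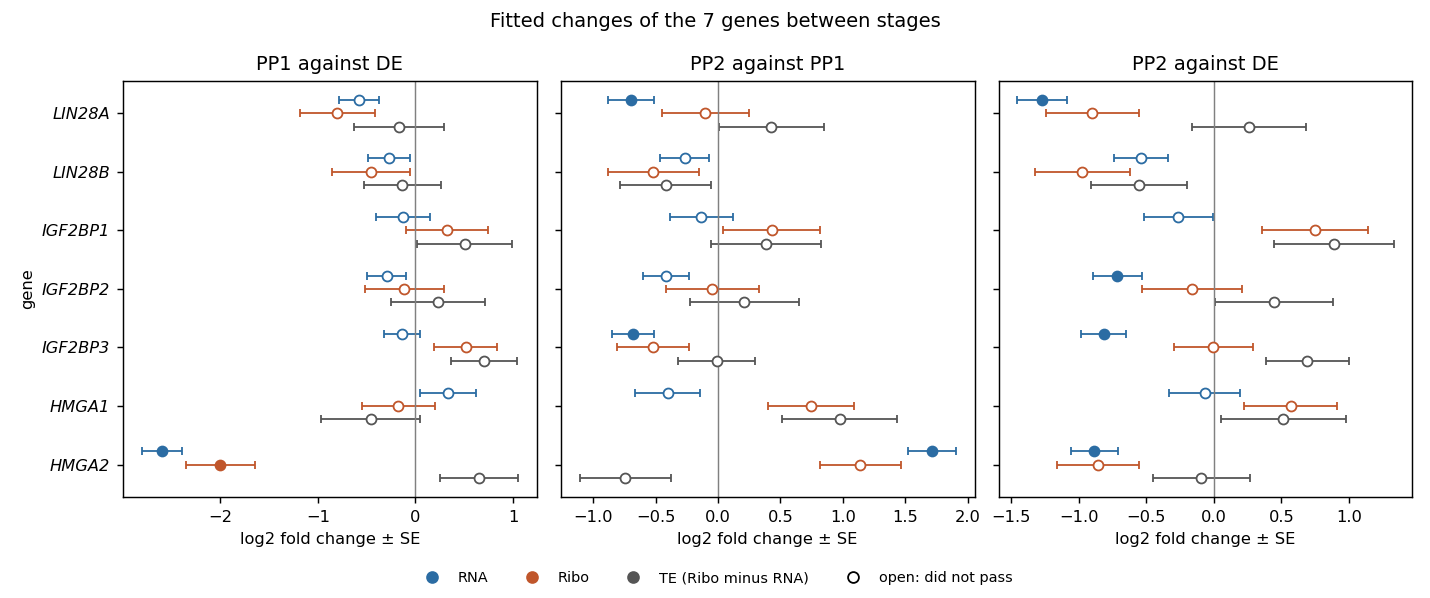
Fitted log2 changes of the 7 genes with their standard errors for each pair of stages, in RNA, Ribo and translation efficiency (TE, the Ribo change minus the RNA change). Filled points passed an adjusted p of 0.05: HMGA2 in RNA in all 3 comparisons and in Ribo from DE to PP1, LIN28A and IGF2BP3 in 2 RNA comparisons each, and IGF2BP2 in 1.

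Translation efficiency (TE), how far the log2 change in Ribo exceeds that in RNA, asks whether ribosome occupancy moved apart from RNA. For the 7 genes, 0 passed in each of the 3 comparisons, where 0.269% (0.0707% higher and 0.198% lower), 0.0777% (all lower) and 5.68% (2.01% higher and 3.67% lower) of all tested genes did, and at an unadjusted p under 0.05 the counts were 0, 0 and 1, with 1450, 1486 and 3764 of all 14152 genes. The single one was IGF2BP3 from DE to PP2, at 0.69 ± 0.31 (p 0.0412, adjusted p 0.17). IGF2BP1 had the highest DE to PP2 value of the 7 at 0.89 ± 0.44 (adjusted p 0.211), where the separate fits of the assays gave −0.26 in RNA and 0.75 in Ribo. For HMGA2 the values were 0.65 ± 0.40, −0.74 ± 0.37 and −0.09 ± 0.36, so that its Ribo changes were smaller in size than its RNA changes at both steps without a passed difference (adjusted p 0.63 and 0.496). HMGA1 stood at −0.46 ± 0.51, 0.97 ± 0.46 and 0.51 ± 0.46. With standard errors of 0.31 to 0.51, a missed threshold does not show that RNA and Ribo moved alike. With limma voom the count was 0, 1 and 2 (HMGA2 at −0.88 from PP1 to PP2, IGF2BP1 and IGF2BP3 at 0.72 and 0.77 from DE to PP2). With DESeq2 it was 0 in each.

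The ratio of Ribo to RNA was low among genes for the LIN28 and HMGA genes and spread wider for the IGF2BP genes. As a percentile among 14152 genes, ratios of same-numbered libraries lay at 0.318 to 4.62 for HMGA1, 1.56 to 7.1 for LIN28A, 2.39 to 8.24 for LIN28B and 3.11 to 9.83 for HMGA2, and at 11.8 to 33.8 for IGF2BP3, 15.5 to 35.3 for IGF2BP2 and 16.2 to 58.1 for IGF2BP1. The highest IGF2BP1 value, above the median gene, was that of PP2 replicate 3, where its RNA was low. Library numbers only name the libraries matched here, and the feature that Ribo reads were counted on is not given in the sources used here, so these percentiles are a description. Each gene has 1 counted length for both assays, from 2327 bases for HMGA1 to 15403 for HMGA2. The part of that length, and of the coding share within it, in the low ratios was not tested.

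Per counted length, the RNA order of the 7 genes was steady except for HMGA2. In CPM per kilobase of counted gene length (RPKM), DE had HMGA1 at 492 ± 16.4 (SD, n = 2), LIN28A at 403 ± 22.4, IGF2BP1 at 104 ± 1.55, IGF2BP2 at 73.5 ± 0.711, HMGA2 at 49.2 ± 2.48, LIN28B at 25.9 ± 2.77 and IGF2BP3 at 22.4 ± 2.46, and only LIN28B and IGF2BP3 overlapped. In PP1, HMGA2 was last at 8.12 ± 0.691 RPKM (n = 2), below LIN28B at 21.4 ± 0.969 and IGF2BP3 at 20.4 ± 0.740, which again overlapped. In PP2, HMGA2 was back in the fifth place at 26.6 ± 2.31 (n = 3), between IGF2BP2 at 44.8 ± 5.66 and LIN28B at 17.8 ± 3.27, and no neighbours overlapped. LIN28A went from 403 to 271 ± 6.93 and 167 ± 16.9 RPKM and stayed in the second place.

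Within families, the balance of paralogs was compared as the ratio of their counts in the same library, which needs no scaling between libraries. An exact two-sided permutation test over the 210 ways to assign 7 libraries to the stages was run for 5 pairs in 2 assays, 10 tests in all, with smallest possible p 0.00952. LIN28B moved up against LIN28A in RNA: the log2 ratio was −3.38 ± 0.07 (SD, n = 2) in DE, −3.08 ± 0.03 (n = 2) in PP1 and −2.66 ± 0.13 (n = 3) in PP2, with exact p 0.00952 (adjusted 0.0476), no stage overlapping another. Per length, LIN28A made up 93.8% and 94.2% of the LIN28 RNA in DE, 92.8% and 92.6% in PP1, then 90.5%, 91.2% and 89.6% in PP2. In Ribo the same ratio differed by less than its spread (−2.87 ± 0.62, −2.55 ± 0.08 and −2.98 ± 0.51, exact permutation p 0.629).

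HMGA2 against HMGA1 differed between stages in each assay. The RNA log2 ratio was −0.60 ± 0.12, −3.53 ± 0.19 and −1.37 ± 0.57 in DE, PP1 and PP2 (n = 2, 2 and 3; exact permutation p 0.019, adjusted 0.0476), and the Ribo ratio 0.31 ± 0.16, −1.50 ± 0.00 and −1.09 ± 0.21 (exact permutation p 0.019, adjusted 0.0476). PP1 was the lowest stage in each assay without overlap. HMGA1 thus held 98.6% to 98.8% of HMGA RNA per length in PP1, 90.4% to 91.4% in DE and 91.6% to 95.8% in PP2. IGF2BP3 against IGF2BP1 differed in Ribo (−2.55 ± 0.12, −2.35 ± 0.05 and −3.30 ± 0.15, exact permutation p 0.00952, adjusted 0.0476), where PP2 lay below the other stages, and did not pass in RNA (−2.39 ± 0.18, −2.39 ± 0.09 and −2.90 ± 0.51, exact permutation p 0.229). In RNA PP2 the ratio was −3.21 and −3.19 in replicates 1 and 2 and −2.31 in replicate 3. Per length, IGF2BP1 was the main family member in every RNA library, at 51.4% to 62.9% of IGF2BP RNA. The remaining 4 ratio tests gave exact p of 0.152 to 0.429. With 1 library left out the 4 passed ratios lost their call, except that without RNA DE replicate 2 both RNA ratios kept an adjusted p of 0.0476. Fewer libraries leave fewer arrangements, and without any 1 PP2 library the exact p was 0.0667 for each of the 4. That is the smallest p that groups of 2, 2 and 2 libraries allow, so these runs could not pass whatever the data.

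**Figure D4:**
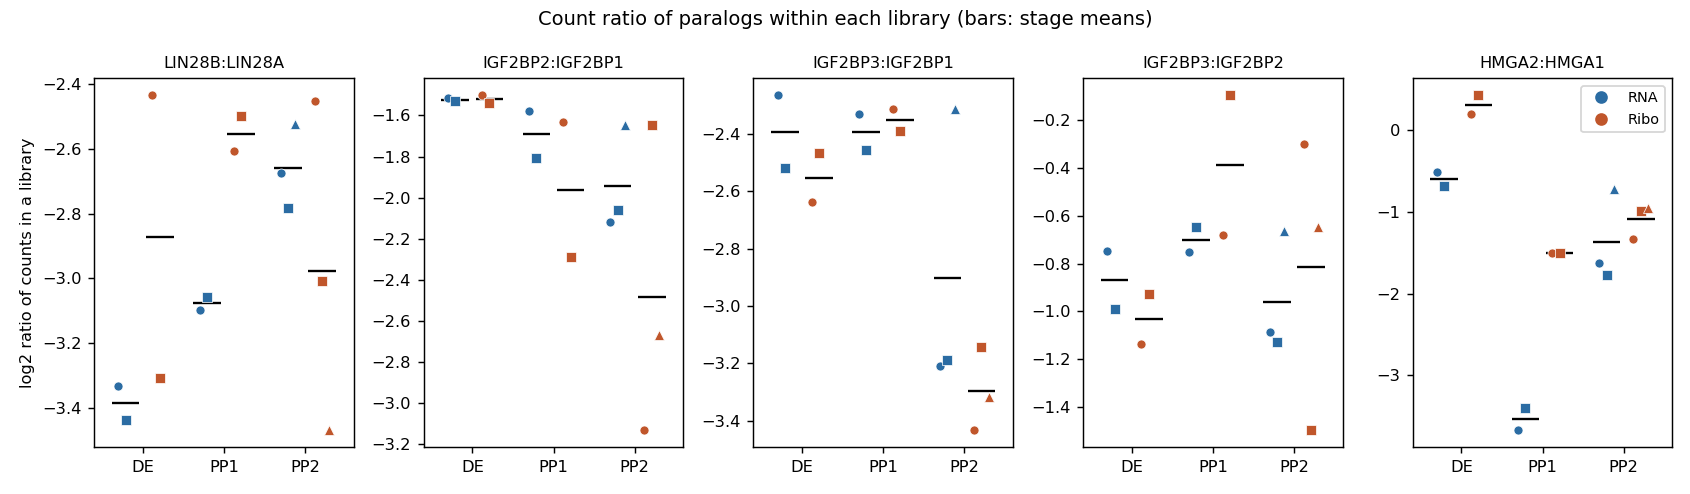
Log2 ratio of the counts of 2 paralogs within each library, by stage, for RNA and Ribo; circles, squares and triangles are replicates 1, 2 and 3 and bars the stage mean. LIN28B against LIN28A climbed in RNA from −3.38 to −2.66, and HMGA2 against HMGA1 was lowest in PP1 in each assay.

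HMGA2 is overlapped by 2 noncoding genes of the table. HMGA2-AS1 (chr12:65851227-65882325) lies inside the HMGA2 span over 31099 bases, and RPSAP52 (chr12:65758020-65826974), a transcribed pseudogene, overlaps it by 2515 bases at the HMGA2 start. HMGA2-AS1 RNA fell by 2.82 ± 0.21 from DE to PP1 (adjusted p 5.91e-05), rose by 2.06 ± 0.19 to PP2 (5.36e-04) and ended at log2 −0.76 ± 0.17 against DE (0.0111). The last of these calls was lost without RNA DE replicate 1 or 2 (adjusted p up to 0.0933). For RPSAP52 the values were −4.22 ± 0.35, 1.74 ± 0.32 and −2.48 ± 0.27 (adjusted p 1.03e-04, 0.00844 and 2.88e-04), and the rise was lost without RNA PP1 replicate 1 (0.0762). HMGA2-AS1 had 7.52 to 11.3 counts per 100 HMGA2 counts in every RNA library. RPSAP52 had 3.98 and 4.73 per 100 in DE and 0.991 to 1.73 in the later stages, with no overlap. The strand setting of the counting is not given in the sources used here. In the overlapping stretches, reads of HMGA2 and of the other gene therefore cannot be told apart. Most of the RPSAP52 span lies outside HMGA2, and the share of its counts from the overlap is not known.

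**Figure D5:**
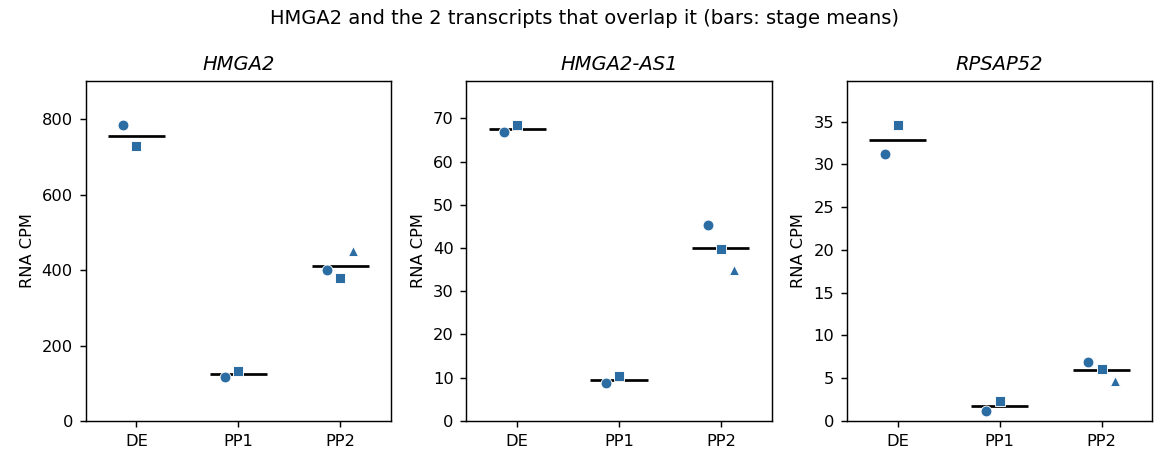
RNA level in CPM of HMGA2 and of the 2 overlapping noncoding genes in every library, each on a linear axis from 0; circles, squares and triangles are replicates 1, 2 and 3 and bars the stage mean. All 3 had their lowest level in PP1, and RPSAP52 in PP2 stayed well under its DE level (6.89, 6.12 and 4.7 CPM, against 31.2 and 34.6 in DE).

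The other antisense and pseudogene copies held few counts. Over the 7 RNA libraries LIN28B-AS1 had 170 counts, LIN28AP1 6, LIN28AP2 9 and IGF2BP2-AS1 956. HMGA1 pseudogenes held 55 (HMGA1P1), 160 (HMGA1P2), 46 (HMGA1P3), 92 (HMGA1P4) and 15 (HMGA1P8) RNA counts, and HMGA1P6 only 3 Ribo counts. HMGA1P1 had 0 RNA counts in DE and 53 in PP1, at least 16.7-fold higher when the floor is 3 counts over the DE group; its sequence resembles HMGA1, so these reads are uncertain.

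Genes with the RNA pattern most like each of the 7 were found as the smallest root mean square difference in centred log2 CPM over the 7 RNA libraries, among 9907 protein-coding genes. The nearest to LIN28A was CORO1C (0.0622), a coronin that binds actin, followed by NR1H2 (0.0772) and ASAP3 (0.0808), and to LIN28B SGPL1 (0.0455), LAPTM4A (0.0495) and WWP1 (0.0559). IGF2BP1 was closest to SON (0.0344), CLASP1 (0.0423) and ADNP (0.045), IGF2BP2 to GNAS (0.0385), ARHGEF11 (0.0582) and VPS52 (0.0645), and IGF2BP3 to RDX (0.0615), FPGS (0.0718) and TKT (0.0725). HMGA1 was closest to TJAP1 (0.0415), PRPF19 (0.0494) and CDK13 (0.0544). For IGF2BP1 and HMGA1 the measure includes the outlying RNA PP2 replicate 3, at 0.596 and 0.587 times the mean of the other PP2 libraries. Likeness without that library was not computed, so these matches need not reflect a shared stage pattern. HMGA2 had no near neighbour of that kind: its closest genes were PAQR4 (0.193), SHOC1 (0.229) and CD200 (0.268), of which PAQR4 averaged 26.9, 4.02 and 11.2 CPM in DE, PP1 and PP2. The median difference of a candidate gene from HMGA2 was 1.1, and from the other 6 genes 0.467 to 0.652.

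Genes that process or destroy let-7 include partners of LIN28 itself. Of 20 tested in RNA, 2 were higher and 0 lower from DE to PP1, 2 and 2 from PP1 to PP2, and 1 and 3 from DE to PP2, where 24.3%, 18.4% and 33.5% of all tested genes passed, with medians of −0.02, −0.22 and −0.13. The 2 that rose from DE to PP1 were AGO1 (1.16 ± 0.34, adjusted p 0.0424, lost in 7 of 16 alternatives, at most 0.215) and the RNase ZC3H12A (1.3 ± 0.23, adjusted p 0.00448), and ZC3H12A then fell by 1.90 ± 0.21 (9.71e-04). Its rise was lost without RNA DE replicate 1 (0.0558). TRIM71, a partner of LIN28 in early development and itself a let-7 target, fell at the same steps as LIN28A: 443 ± 11.5 (SD, n = 2), 372 ± 8.30 (n = 2) and 222 ± 17 CPM (n = 3), with log2 −0.75 ± 0.17 from PP1 to PP2 (adjusted p 0.0186, lost in 6 of 16 alternatives, at most 0.156) and −1.0 ± 0.17 from DE to PP2 (0.00243, kept in all 16). TUT4, the uridylating enzyme, fell from 370 ± 12.1 in DE to 210.5 ± 23.4 CPM in PP2 (−0.81 ± 0.18, adjusted p 0.00923), a call lost without RNA DE replicate 1 or 2 (at most 0.0867). TUT7 and the exonuclease DIS3L2, which degrades uridylated pre-let-7, did not pass at any step (DE to PP2 log2 0.08 ± 0.20 and 0.25 ± 0.48). DICER1, the enzyme that cuts the precursor, rose by 0.97 ± 0.21 from PP1 to PP2 (adjusted p 0.0172) and was 0.83 ± 0.21 above DE (0.0177), and AGO2, which carries mature let-7, fell by 1.33 ± 0.30 from DE to PP2 (0.0111). Each of these 3 calls was lost without either library of the earlier stage (adjusted p at most 0.166, 0.17 and 0.0757).

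Mature let-7 was not measured. Of 20 listed let-7 genes and host transcripts, 17 were in the table and 6 passed the count filter in RNA. The rows of MIRLET7A1, MIRLET7A2, MIRLET7A3, MIRLET7B, MIRLET7D, MIRLET7E and MIRLET7F1 held 0 counts in every library. MIR99AHG, host of let-7c, had 10 RNA counts in DE, 104 in PP1 and 487 in PP2 and rose at both steps (3.23 ± 0.50 and 1.42 ± 0.35, adjusted p 0.00229 and 0.026). The second call was lost without PP1 replicate 1 or 2 or PP2 replicate 1 (at most 0.193). Its Ribo level was 49.3, 13.4 and 3.43 CPM, lower in PP2 than in DE (−3.95 ± 0.71, adjusted p 0.00322). MIRLET7BHG, host of let-7a-3 and let-7b, had 41, 16 and 11 RNA counts and was lower in PP2 than in DE (−2.80 ± 0.57, adjusted p 0.00633, lost without RNA DE replicate 2 at 0.126).

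Other targets of let-7 passed in either direction. Of 29 tested in RNA, 2 rose and 5 fell from DE to PP1, 4 rose and 5 fell from PP1 to PP2, and 5 rose and 8 fell from DE to PP2, beside 24.3%, 18.4% and 33.5% of all tested genes, with medians of −0.25, 0.06 and −0.44. CDK6, a cell cycle kinase, went with HMGA2 at the first step only: it fell from 858 ± 92.2 (n = 2) to 169.9 ± 5.17 CPM (n = 2; log2 −2.34 ± 0.26, adjusted p 4.29e-04) and stayed at 188 ± 43.1 in PP2 (n = 3). CCND1, cyclin D1, fell by 1.36 ± 0.19 and then rose by 2.39 ± 0.19 (adjusted p 0.00157 and 2.91e-04), and MYC rose by 1.59 ± 0.27 and then fell by 1.46 ± 0.24 (0.00377 and 0.0052, the second lost without PP1 replicate 2 at 0.0645). NR6A1, a nuclear receptor of early embryos, fell by 1.19 ± 0.16 from PP1 to PP2 (0.00252). MYCN, the proto-oncogene that can drive LIN28B, had 30.6 ± 5.19, 33.5 ± 1.08 and 46.8 ± 3.96 CPM, and its rise of 0.61 ± 0.18 from DE to PP2 (0.0309) was lost in 8 of 16 alternatives (adjusted p at most 0.27).

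RNAs known to be bound by IGF2BP proteins passed in either direction. Of 11 tested, 6 rose and 1 fell from DE to PP1 (all tested genes: 12.3% higher, 12% lower), 1 rose and 4 fell from PP1 to PP2 (7.8% and 10.6%), and 5 rose and 2 fell from DE to PP2 (16.4% and 17.1%), with medians of 1.98, −0.26 and 0.13. H19, the imprinted noncoding RNA, had 0 counts in DE, 1658 in PP1 and 11104 in PP2, at least 521-fold and 1953-fold higher against a floor of 3 counts over the DE group. IGF2, the growth factor whose mRNA named the family, was 3.61 ± 0.155 CPM in DE (n = 2) and 398 ± 94.3 in PP1 (n = 2; log2 6.78 ± 1.81, adjusted p 0.0271), a call lost without any 1 DE or PP1 library (at most 0.167). In PP2 it ran from 15.3 to 2140.5 CPM, with replicate 3 the low one, and the rise against DE (8.55 ± 1.92, adjusted p 0.01) was lost without either DE library (at most 0.088). CD44, a cell surface receptor, rose by 5.51 ± 0.39 from DE to PP1 and fell by 2.03 ± 0.25 to PP2 (adjusted p 4.94e-05 and 0.0016). The MAPK4 and CDKN1A transcripts rose by 2.85 ± 0.35 and 3.04 ± 0.38 from DE to PP1 (6.61e-04 and 7.98e-04).

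Partner proteins and relatives of the 7 genes were counted in RNA beside the 24.3%, 18.4% and 33.5% of all tested genes that passed in the 3 comparisons. Of 12 proteins found in particles with IGF2BP, 0 rose and 1 fell (FXR1, −0.67 ± 0.18, adjusted p 0.0274) from DE to PP1, 0 passed from PP1 to PP2, and 2 rose and 1 fell from DE to PP2, in RNA. FXR1 at the first step was lost in 7 of 16 alternatives, at most 0.185. Of 16 m6A writers, erasers and YTH readers, 0 passed from DE to PP1, 1 rose from PP1 to PP2 (YTHDC2, 0.93 ± 0.19, adjusted p 0.0119) and 1 rose and 2 fell from DE to PP2. Without PP1 replicate 1 or 2 the YTHDC2 call was lost (at most 0.124). Of 8 other high mobility group genes tested, 1 rose from DE to PP1 (HMGN5, 1.43 ± 0.35, adjusted p 0.0194, lost without any 1 DE or PP1 library at up to 0.13), 2 rose from PP1 to PP2 (HMGB3 and HMGN2, 0.82 ± 0.20 and 1.39 ± 0.24), and 2 rose from DE to PP2 (HMGN2 and HMGN3, 0.72 ± 0.23 and 1.44 ± 0.37), with none lower. The HMGN2 calls were lost in 2 and 5 of 16 alternatives, HMGB3 in 5 and HMGN3 in 2.

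POU5F1, NANOG and SOX2, pluripotency factors that accompany LIN28A in stem cells, had other levels. POU5F1 RNA was 28.7 ± 1.36 CPM in DE (n = 2), 0.147 ± 0.0133 in PP1 (n = 2) and 0.424 ± 0.149 in PP2 (n = 3), at log2 −7.54 ± 0.40 in PP1 against DE (adjusted p 1.73e-05), and NANOG had 413, 4 and 3 counts. SOX2, which also marks foregut, rose from 0.614 ± 0.448 CPM in DE to 10.9 ± 3.06 in PP2 (4.16 ± 0.49, adjusted p 3.88e-04). LIN28A over the same stages kept 664 ± 67.0 CPM in PP2 of the 1603 ± 89.2 it had in DE. Other listed pluripotency markers differed among themselves. DPPA4 also kept part of its level, at 141, 66.8 and 52.6 CPM in DE, PP1 and PP2. L1TD1 fell from 505 CPM in DE to 13.6 in PP2, and DNMT3B from 360 to 30.7. Of 9 such markers tested from DE to PP2, 6 were lower and 2 higher (all tested genes: 17.1% and 16.4%).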

How the data were processed

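RNA and Ribo libraries of 3 stages were analysed from 1 table of raw counts per gene symbol that the authors deposited, with gene length per the file headers. Per the submitters' processing notes, cutadapt 1.18, Bowtie 1.2, STAR 2.7.1a and featureCounts 1.6.4 were used with hg38; strand setting, annotation release and counted feature are not given in the sources used here. Each of the 14 count columns was matched to 1 sample by name. Coordinates, biotypes and sequences are RefSeq's (GRCh38.p14), matched by symbol.

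Each assay was fitted over its 7 libraries in edgeR 4.0.16 (R 4.3.3): filterByExpr, TMM scaling, estimateDisp, quasi-likelihood F test, with Benjamini-Hochberg adjustment over 24603 RNA or 15067 Ribo genes. TE was the interaction in 1 fit of 14 libraries in 6 groups over 14152 genes. Values are log2 fold changes ± SE, and CPM use TMM-scaled totals. Paralog ratios added 0.5 to each count. Depth was 15107847 to 21009065 (RNA) and 4710335 to 24186949 (Ribo) counts; counting bounds cover counting error only. The edgeR procedure was tested on simulated counts.

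The 7 genes, the gene lists and the alternatives were chosen with earlier results of these data known. Named genes were the 7, up to 4 genes per list and RNA comparison with the largest passed change, a few fixed genes of the let-7 and IGF2 circuits, their antisense and pseudogene copies with counts, and the 3 most alike genes each (mean of at least 10 CPM, prior count 2). Alternatives were DESeq2 1.42.0 size factors and Wald test, limma 3.58.1 voom, other gene filters, only the stages compared, a replicate term and leaving out libraries.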

Additional observations from a re-analysis of the deposited data

Results flagged for a closer look

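In 7 genes of the lists, the RNA change and the Ribo change from DE to PP2 differed by the TE interaction test of edgeR with Benjamini-Hochberg adjustment. Of all 14152 tested genes 804 passed (5.68%), and 0 of the 7 main genes. By list it was 2 of 4 let-7 genes and hosts, 1 of 29 let-7 targets and 1 of 12 IGF2BP partners. It was 2 of 8 high mobility group genes and 1 of 1 antisense gene. Among 20 let-7 processing genes, 10 IGF2BP target RNAs and 16 m6A genes it was 0. The 7 are a description beside this background. The log2 TE change was −1.92 ± 0.54 for HMGN3 (adjusted p 0.0488), −2.14 ± 0.59 for HMGN1 (0.0464), −2.02 ± 0.57 for PLAGL1 (0.0495) and 1.85 ± 0.39 for STAU1 (0.0181), a double-stranded RNA-binding protein found with IGF2BP. For noncoding host transcripts it was −8.72 ± 1.08 for MIR99AHG (6.94e-04) and −5.87 ± 1.56 for MIR100HG (0.0406). MIR100HG had only 3 RNA counts in DE, with 1 library at 0, so its fitted value depends on the prior count. MIR99AHG had only 10 RNA counts in DE, beside 549 Ribo counts. For these noncoding transcripts the value is a ratio of reads and no measure of translation. HMGA2-AS1 was at 9.20 ± 2.25 (0.0326), but it had 0 Ribo counts in DE, so this fitted value depends on the prior count and is no bound; its Ribo level was at least 4.7-fold higher in PP2 against a floor of 3 counts over the DE group. The MIR99AHG call was kept in all 25 alternatives run for it, while those of HMGN3, HMGN1, PLAGL1, MIR100HG, HMGA2-AS1 and STAU1 were lost in 19 of 26, 18 of 26, 17 of 25, 14 of 21, 10 of 21 and 5 of 26. Ribo PP2 replicates 1 and 3 differ in make-up from the other Ribo libraries. Without them 5 of the 7 calls were lost: HMGN3 (adjusted p 0.195), HMGN1 (0.153), PLAGL1 (0.213), MIR100HG (0.131) and STAU1 (0.0872). Those of MIR99AHG (−7.29, 8.77e-04) and HMGA2-AS1 (0.00233) were kept.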

How the results depend on the processing

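The number of the 7 genes called moved as follows. In RNA from DE to PP1 (1 as reported) it was 2 with protein-coding genes only, with a mean of at least 50 counts and with DESeq2, 4 with limma voom and 5 with only the stages compared. From PP1 to PP2 (3) it was 5 with voom and 1 with only the stages compared. In Ribo from DE to PP1 (1) it was 2 with only the stages compared. Ribo from PP1 to PP2 (0) gave 1 with DESeq2, with voom and without Ribo PP2 replicates 1 and 3. Ribo from DE to PP2 (0) gave 1 with DESeq2 size factors, 3 with protein-coding genes only and with a mean of at least 50 counts, 2 with DESeq2 and 3 with voom. TE gave 1 with voom from PP1 to PP2, 2 with voom from DE to PP2, and, without RNA PP2 replicate 3 and Ribo PP2 replicates 1 and 3, a setting chosen after seeing the data, 2 from DE to PP1 and 1 from DE to PP2. Leaving out 1 library gave 1 to 5 in each RNA comparison (4 as reported from DE to PP2), 0 to 1 in Ribo from DE to PP1 and from PP1 to PP2, and 0 to 3 in Ribo from DE to PP2. Ratio tests then gave exact p of 0.0167 to 0.0667 for LIN28B to LIN28A and for HMGA2 to HMGA1 in RNA, and the same 0.0167 to 0.0667 for IGF2BP3 to IGF2BP1 and for HMGA2 to HMGA1 in Ribo. Without 1 PP2 library 0.0667 was the smallest possible exact p, so those runs say nothing on how firm the ratios are.

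Whether replicate numbers pair the libraries could not be decided. Deviations of same-numbered libraries from their stage mean correlated at −0.137 to 0.168 in RNA, −0.235 to 0.059 in Ribo and −0.136 to 0.103 between assays. Among these libraries, 2 of 6 in RNA and 0 of 6 in Ribo correlated best with their own number. In a stage of 2 libraries the 2 deviations mirror each other. The DE to PP1 correlation was therefore the same for both numbers (−0.033 in RNA, 0.059 in Ribo), and this check cannot show or exclude pairing. The replicate block gave 5, 5 and 5 called genes in the 3 RNA comparisons, 1, 0 and 0 in Ribo and 0 in TE. In RNA its term for number 3 fits PP2 replicate 3 alone, so it resembles leaving that library out.

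Over all genes the RNA calls of 5979, 4533 and 8240 ranged over 2935 to 11997, 1210 to 9984 and 4216 to 12995, the Ribo calls of 1135, 755 and 4153 over 424 to 3149, 58 to 4175 and 1682 to 6901, and the TE calls of 38, 11 and 804 over 6 to 1423, 0 to 1856 and 52 to 4139. Using protein-coding genes only, which changes the genes tested (14557 in RNA) as well as the scaling, moved the RNA median from PP1 to PP2 by 0.10 on the log2 scale (52.8% of calls higher, against 42.3%) and the TE median from DE to PP2 by −0.10. No called change of the 7 genes reversed. Of 104 called results of named list genes, 37 kept their call in every alternative and 0 reversed. Groups of 2 and 3 libraries of 1 cell line, uneven Ribo make-up, unknown strand and counted feature, and few Ribo counts (50 to 56 for LIN28B in PP1) limit these values.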
